A study of Sus scrofa with 10 samples.

Results

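Collagen genes were followed in the ovaries of 10 gilts, 5 injected with rpFSH and 5 with saline. The members were the protein-coding loci of the deposited table whose gene name was COL, a number, A and a number, and 29 of 43499 loci met this rule, or 29 of 19972 protein-coding loci. Of these 29 genes, 28 were abundant enough to be tested. COL12A1, which encodes a collagen found on the surface of fibrils, was the only member past an unadjusted P of 0.05 in edgeR, and it was higher after rpFSH. COL3A1, COL1A1 and COL1A2, of types I and III, made up most of the summed FPKM of the 29 members in every pig, and their levels in the groups overlapped.

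Both groups were gilts of the same genetic background, born on 1 day and kept on 1 diet. All 10 were fed altrenogest, a progestin that holds back oestrus, at a daily 20 mg, starting at 210 days of age and lasting 18 days, and the feeding was stopped for 2 days. The rpFSH treatment group was then injected with 1000 IU of rpFSH per pig, a recombinant pig follicle-stimulating hormone expressed in CHO cells, and the control group was injected with saline. The labels write the treatment as fpFSH and as untreated, respectively. Ovaries were taken at 234 days of age, after the surface follicles had been removed, so follicles that had reached the surface are not part of the sample. Each library came from 1 pig. The labels number the pigs from 1 to 5 within each group, and a pig is named here by its group and that number.

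Collagens are secreted proteins built from 3 chains wound into a triple helix, and the chains of 1 molecule may come from 1 gene or from several. Fibrillar collagens such as types I and III form the fibres of the ovarian stroma and of the follicle's outer wall. Type IV collagen forms the sheet of the basement membrane around follicles and vessels. Other types bind to fibrils, form fine filaments, or span the cell membrane. In the ovary the matrix is rebuilt as follicles grow, rupture and turn into corpora lutea.

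Total counts were between 64873797 and 75114003 per pig, and a count of 3 corresponded to between 0.0399 and 0.0462 CPM (counts scaled to the library total), a floor that covers counting error only. Markers of granulosa cells, theca, oocytes and stroma were found in these libraries, though some were near the floor in some pigs. The oocyte gene GDF9 was between 2.36 and 4.92 FPKM, ZP3 between 0.592 and 5.72 and DDX4 between 0.262 and 1.02. FIGLA, also of the oocyte, ran from the lowest listed value, 0.0001 FPKM, to 0.355 FPKM. The granulosa marker FOXL2 was not found. In control 2, INSL3 was at 0.351 and CYP19A1 at 0.110 FPKM. The summed FPKM of 5 granulosa markers was lowest in control 2 and rpFSH 3, at 4.83 and 10.7, against 14.5 to 93.0 elsewhere. These pigs also had the lowest sums of the theca markers CYP17A1 and INSL3, 5.81 and 3.47, against 24.6 to 222 elsewhere. Of the single markers, AMH in rpFSH 3 and CYP17A1 in control 2 were not among the 2 lowest values. Several pigs stood apart in markers of other cells. The summed FPKM of the luteal markers STAR, CYP11A1 and LHCGR, carried by STAR and CYP11A1, was 2293 in control 2, 1243 in rpFSH 1 and 303 in rpFSH 4, and lay between 8.69 and 44.1 in the other pigs. The summed FPKM of 5 epithelial markers (EPCAM, KRT8, KRT18, OVGP1 and FOXJ1) was 110 in control 5 and 42.6 in control 2, against 2.59 to 5.28 elsewhere. All 5 were lower in the rpFSH pigs at an unadjusted P under 0.05 in edgeR, against 3.22% of all loci tested. The sums in control 1, control 3 and control 4 were 5.28, 2.59 and 4.28, and those of the rpFSH pigs were 3.56 to 4.54. For these markers, fits without control 2 and control 5 are not given. The summed FPKM of the smooth muscle and pericyte markers was 1822 in control 5, against 141 to 564 elsewhere, and 0 of these 6 markers passed the same limit. The pericyte marker RGS5 went another way, with 33.5 FPKM in control 5 and its highest value, 117 FPKM, in control 2. LHCGR did not follow the other luteal markers either, with 2.74 FPKM in control 2 against 0.907 to 7.32 FPKM elsewhere. In RNA of a whole ovary, fewer cells of a type and less RNA per cell cannot be told apart. Collagen fold changes that turned on 1 or 2 of these pigs are also given without them. The fits without 2 pigs were chosen after seeing the data, so a P from them is descriptive only.

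Levels are given as FPKM, which is scaled to transcript length, so comparisons between genes depend on the assembled transcripts. Over the 10 pigs, 3 members had a mean above 100 FPKM, 7 were between 10 and 100, 11 were between 1 and 10, and 8 were below 1. COL3A1 (type III) had the highest mean, 527 FPKM, followed by COL1A1 at 311 FPKM and COL1A2 at 237 FPKM, the 2 chains of type I. Next came COL4A2 of the basement membrane at 48.9 FPKM, COL12A1 at 40.9 FPKM, COL6A3 of the beaded filaments at 33.7 FPKM and COL5A1 at 24.9 FPKM, a chain of type V, which sits inside type I fibrils. COL5A2 had 19.9 FPKM, and the fibril-associated COL14A1 and COL16A1 had 18.0 and 16.2 FPKM. COL15A1 had 8.79 FPKM and COL18A1 had 8.70 FPKM, both of the multiplexin class, which lies at basement membranes. The lowest tested member was COL28A1 at 0.408 FPKM, and the most abundant was 1292-fold above it. COL4A1 and COL6A1 did not meet the naming rule and are not in this order, with means of 107 and 72.4 FPKM.

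**Figure D1:**
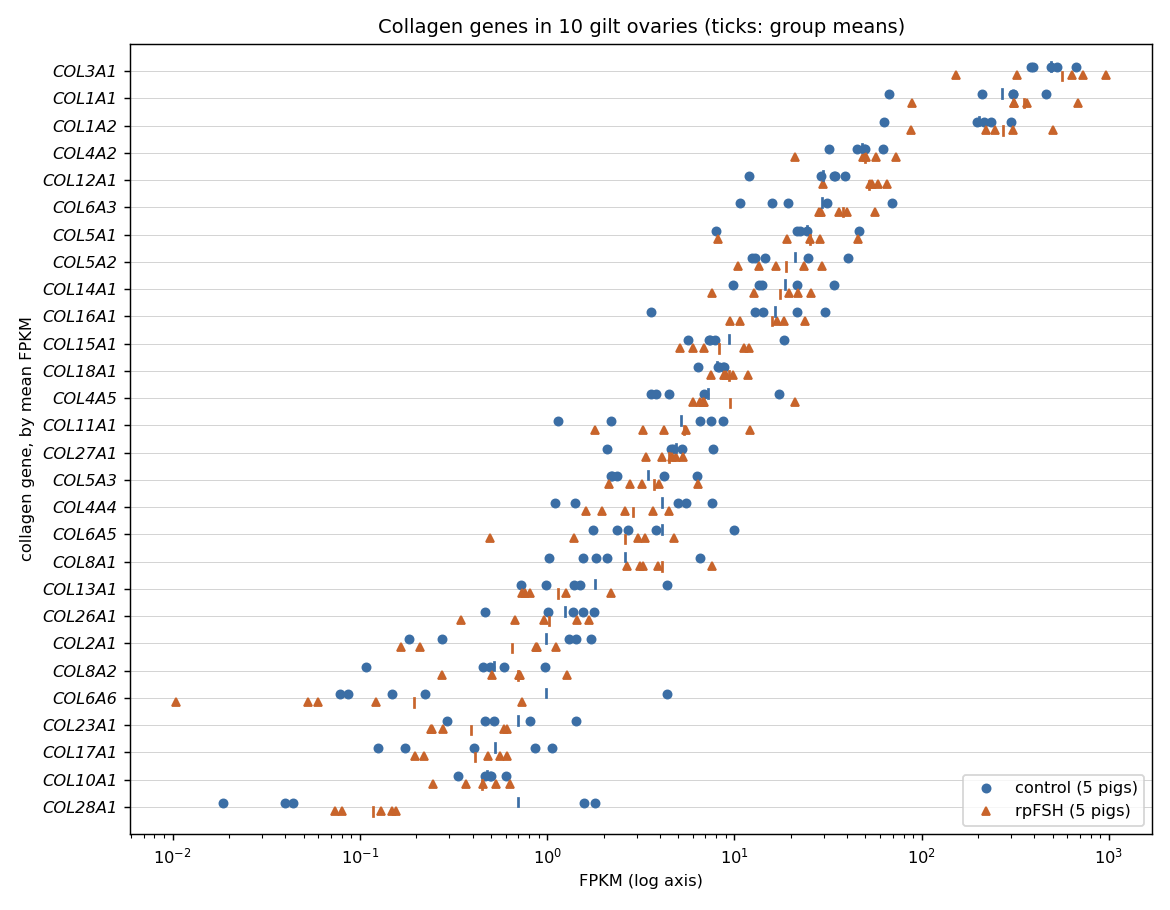
FPKM of the 28 tested collagen genes in each pig, on a log axis, with circles for the 5 control pigs, triangles for the 5 rpFSH pigs and a tick at each group mean. COL3A1, COL1A1 and COL1A2 lie above the others, and the circles and triangles overlap in every gene.

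The collagen RNA of a pig varied widely within both groups. The summed FPKM of the 29 members was 1313, 716, 992, 1248 and 1773 in control 1 to 5. It was 1419, 2505, 512, 1680 and 1171 in rpFSH 1 to 5. The lowest and the highest of the 10 sums were both in the rpFSH treatment group, in rpFSH 3 and rpFSH 2. The means were 1209 ± 394 FPKM for control and 1457 ± 729 FPKM for rpFSH (SD, n = 5 each). As a share of all counts, the members held 1.18% ± 0.392 and 1.46% ± 0.612, respectively. Of the members' summed FPKM, COL3A1, COL1A1 and COL1A2 held 79.1% ± 3.53 in control pigs and 78.0% ± 9.17 in rpFSH pigs. Collagen loci outside the naming rule, such as COL4A1 and COL6A1, are not in these sums and shares. Control 2 and rpFSH 3 had the least collagen RNA, and 1 of them was the lowest pig for 19 of the 28 tested members. They also had the lowest sums of granulosa and theca markers, whose part in the levels was not tested. Control 5 was the highest pig for 6 members, and control 2 and rpFSH 2 were the highest for 5 each.

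**Figure D2:**
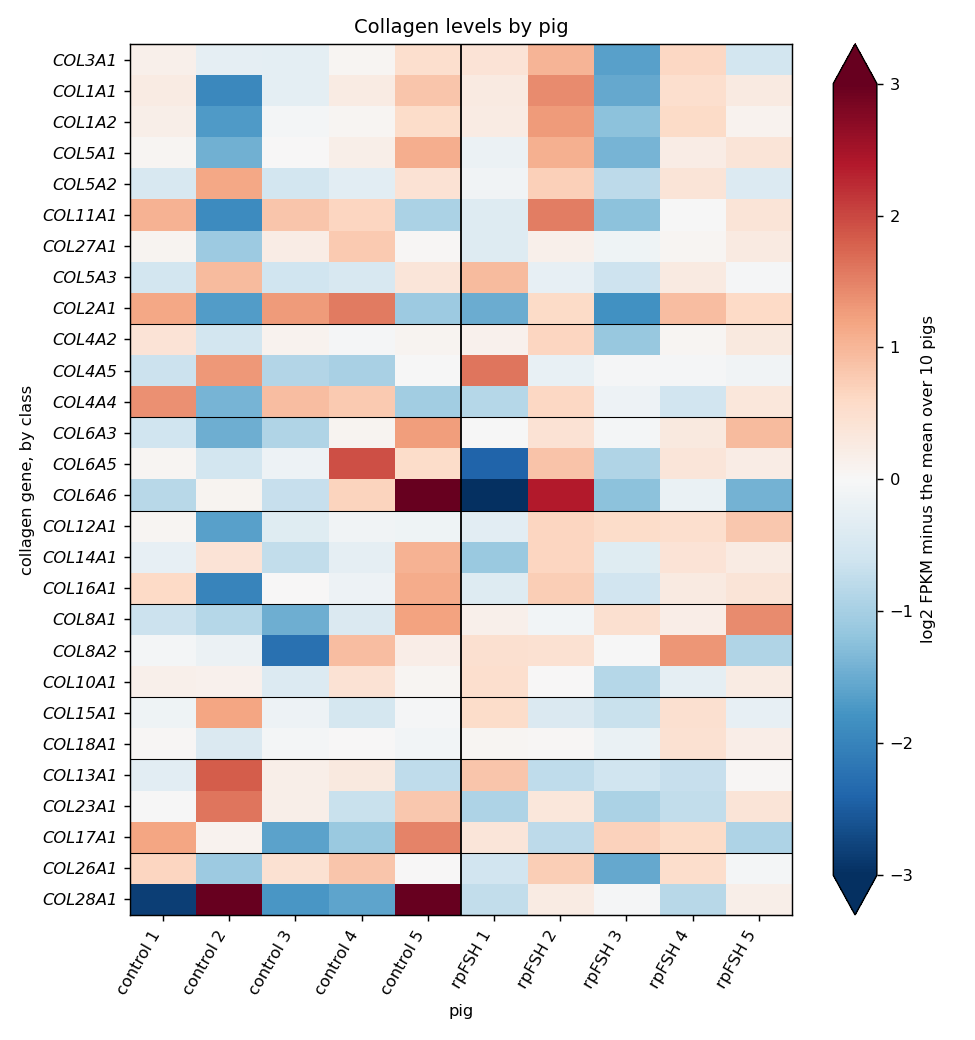
Heat map of the 28 tested genes (rows, by class) in the 10 pigs (columns), coloured by log2 FPKM minus the gene's mean over the 10 pigs, with colours held at -3 and 3. Control 2 and rpFSH 3 are blue in most of the fibrillar genes, while control 2 is red in COL5A2, COL5A3, COL15A1, COL13A1 and COL23A1.

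Differences between the groups were tested on the deposited counts with edgeR's quasi-likelihood test, two-sided, fitted to the 15170 protein-coding loci with a mean of at least 0.1 FPKM. At an unadjusted P under 0.05, 1 of 28 members was higher in the rpFSH treatment group, against 1.54% of all loci tested, and 0 were lower, against 3.22%. The share of members called in either direction, 3.57%, was close to the background of 4.76%. The study's limits were an unadjusted P under 0.05 and a log2 fold change above 1 or below -1. With them, edgeR called 0 members, against 0.508% of all loci higher and 2.58% lower. The study itself, which compared FPKM with Ballgown, lists COL6A6, COL12A1 and COL28A1 as differentially expressed. After Benjamini-Hochberg adjustment over all loci tested, 0 members and 0% of all loci had an adjusted p under 0.05 in edgeR, and the smallest adjusted p was 0.992. DESeq2 on the same counts gave 2 members an unadjusted P under 0.05, COL12A1 and COL28A1, against 6.04% of all loci in either direction. It gave 0 members an adjusted p under 0.05, against 0.567% of all loci, and it gave COL6A6 no P. The groups overlapped in all 28 members. Of all loci, 0.0791% had every rpFSH pig above every control and 0.547% had every rpFSH pig below.

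Of the 28 tested members, 14 had a positive and 14 a negative log2 fold change (rpFSH over control). Their median log2 fold change was 0.01, and that of all loci tested was -0.01. The 95% intervals were wide. They included 0 in 27 members, and the margin on either side of the estimate had a median of 1.04 on the log2 scale, with a range from 0.320 to 3.09. For 8 members, the interval lay within -1 to 1, so for most of the family these 10 pigs leave room for a change of over 1 on the log2 scale in at least 1 direction. Each gene was also compared by a two-sided exact permutation test of log2(FPKM + 1) over all assignments of the pigs to the groups, whose p is unadjusted. The median standard error of the log2 fold change was 0.471 for the members and 0.284 for all loci tested.

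**Figure D3:**
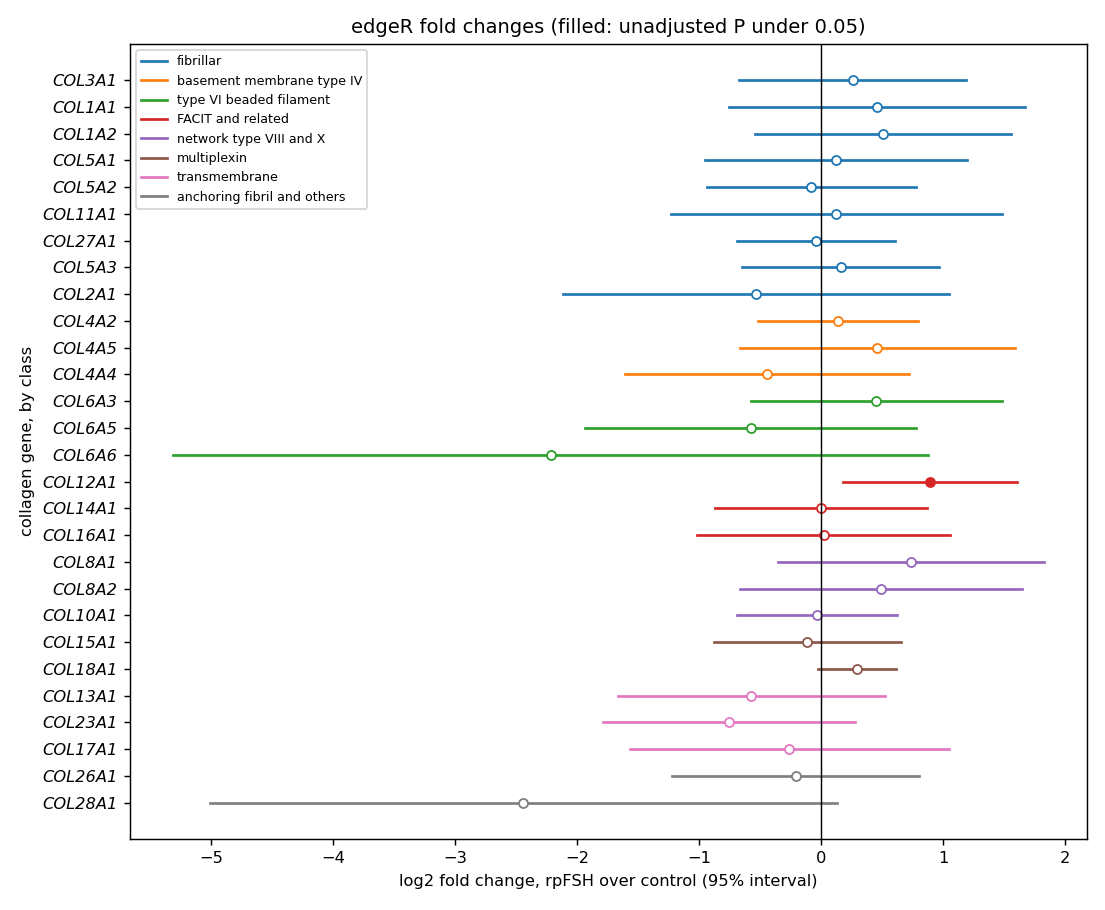
Log2 fold change of rpFSH over control with its 95% interval for the 28 tested genes, coloured by class, filled where the unadjusted P is under 0.05. Only COL12A1 (0.89, interval 0.18 to 1.61) has an interval clear of 0, and COL6A6 and COL28A1 have the widest intervals.

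Among the collagens that associate with fibrils, 3 were members. COL12A1 encodes the chain of type XII collagen, which lies along type I fibrils and links them to other matrix molecules. Its locus is at chr1:90744289-90875128 on the plus strand of Sscrofa11.1 and also holds a second gene identifier. COL12A1 was at 39.0, 12, 28.8, 34.4 and 34.0 FPKM in control 1 to 5, and at 29.7, 58.6, 54.3, 53.2 and 65.3 FPKM in rpFSH 1 to 5. Of the rpFSH pigs, all except rpFSH 1 were above every control pig. The means were 29.7 ± 10.5 and 52.2 ± 13.4 FPKM (SD, n = 5 each). The log2 fold change was 0.89 with a standard error of 0.32 and a 95% interval from 0.18 to 1.61. The unadjusted P was 0.0186 with edgeR, 0.00682 with DESeq2, 0.0226 with limma on log2(FPKM + 1) and 0.0317 by the exact permutation test. The adjusted p in edgeR was 0.992. With each pig left out in turn, the log2 fold change lay between 0.70 and 1.05 and the unadjusted P between 0.00668 and 0.0449. Without control 2, the lowest pig, and rpFSH 3 together it was 0.67, and without control 2 and control 5 it was 0.70, both past an unadjusted P of 0.05 in edgeR. In rpFSH 3, COL3A1, COL1A1 and COL1A2 together held 64.2% of the members' summed FPKM, the lowest share of the 10 pigs. COL12A1 made up 10.6% there, against 1.68 to 5.57% in the other pigs.

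The other 2 members of this class did not pass the test. COL14A1, the chain of type XIV collagen, had a log2 fold change of -0.00 (interval -0.87 to 0.87) with all pigs, and of 0.33 without control 5. COL16A1, the chain of type XVI collagen, had 0.02 (interval -1.02 to 1.06) with all pigs, -0.23 without control 2 and 0.36 without control 5. COL16A1 was lowest in control 2, at 3.61 FPKM, and highest in control 5, at 30.5 FPKM.

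Of the fibrillar collagens, 10 genes were members and 9 were tested, of which 6 had a positive and 3 a negative log2 fold change and 0 passed the test. COL3A1, which forms the fine reticular fibres, was at 526, 392, 385, 490 and 670 FPKM in control 1 to 5. It was at 634, 964, 153, 727 and 325 FPKM in rpFSH 1 to 5. The rpFSH pigs thus held both ends of the range, and the log2 fold change was 0.26 (interval -0.67 to 1.19, exact permutation p = 0.937). COL1A1, the chain that supplies most of a type I molecule, was at 308, 67.0, 209, 308 and 459 FPKM in the control pigs. The rpFSH pigs had 310, 685, 89.0, 363 and 311 FPKM of COL1A1. Control 2 and rpFSH 3 were far below the rest in both groups, and the log2 fold change was 0.46 (interval -0.75 to 1.67, exact permutation p = 0.556). COL1A2, the other chain of type I, had 0.51 (interval -0.54 to 1.55, exact permutation p = 0.468) and followed COL1A1 pig by pig. Without control 2 and rpFSH 3, the log2 fold changes of COL3A1, COL1A1 and COL1A2 were 0.42, 0.45 and 0.50, with unadjusted P of 0.226, 0.212 and 0.119 in edgeR. Without rpFSH 2, the highest pig, they were -0.05, 0.05 and 0.15, and without rpFSH 3 they were 0.50, 0.70 and 0.73. Leaving out the highest or the lowest rpFSH pig moves the rpFSH mean by itself. The size of all 3 thus turned with either pig, and the direction of COL3A1 with rpFSH 2.

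COL5A1 and COL5A2 encode chains of type V collagen, which starts and limits the growth of type I fibrils. COL5A1 was at 22.5, 7.99, 21.6, 24.5 and 46.2 FPKM in the control pigs and at 19.1, 45.6, 8.18, 25.2 and 28.5 FPKM in the rpFSH pigs. COL5A2 was at 12.9, 40.3, 12.4, 14.5 and 24.6 FPKM in the control pigs and at 16.7, 29.5, 10.4, 23.5 and 13.6 FPKM in the rpFSH pigs. Control 2 was thus the lowest of 10 pigs for COL5A1 and the highest for COL5A2. Their log2 fold changes were 0.12 (interval -0.95 to 1.19) and -0.08 (interval -0.94 to 0.78). That of COL5A1 was -0.22 without rpFSH 2, and that of COL5A2 was 0.30 without control 2 and 0.58 without control 2 and control 5, so the direction of both turned with 1 pig. COL5A3, the third chain of the type, had a mean of 3.58 FPKM and was highest in rpFSH 1 and control 2, at 6.39 and 6.34 FPKM. Its log2 fold change was 0.16 with all pigs and 0.77 without control 2 and control 5, where it passed an unadjusted P of 0.05 in edgeR (adjusted p = 0.728). Of the remaining fibrillar genes, COL11A1 had a mean of 5.30 FPKM, COL27A1 of 4.67 FPKM and COL2A1, the collagen of cartilage, of 0.816 FPKM, with edgeR's unadjusted P between 0.47 and 0.882. COL11A2 had counts of 0 to 35 and a mean of 0.0225 FPKM, below the filter, and was not tested.

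Of the type IV collagens of the basement membrane, 3 genes met the naming rule and 0 passed the test. COL4A2 was at 62.3, 31.9, 49.9, 45.3 and 49.5 FPKM in the control pigs and at 50.6, 72.9, 21.1, 48.8 and 57.0 FPKM in the rpFSH pigs. These ranges overlapped throughout, and the log2 fold change was 0.14 (interval -0.52 to 0.80). COL4A5, carried on the X chromosome, was at 4.47, 17.3, 3.80, 3.59 and 6.90 FPKM in the control pigs and at 21.1, 6.04, 6.86, 6.79 and 6.53 FPKM in the rpFSH pigs. Control 2 and rpFSH 1 stood above the rest, and these were also the 2 pigs with the highest summed luteal markers, whose part in the levels was not tested. COL4A5 had a log2 fold change of 0.46 (interval -0.67 to 1.59, exact permutation p = 0.429). Without control 2 alone it was 1.08 and passed an unadjusted P of 0.05 in edgeR, and without rpFSH 1 alone it was -0.05, so both the call and the direction turned with 1 pig. COL4A4 was at 7.56, 1.10, 5.49, 5.02 and 1.41 FPKM in the control pigs and at 1.62, 4.46, 2.61, 1.95 and 3.68 FPKM in the rpFSH pigs, with a log2 fold change of -0.44 (interval -1.61 to 0.72). Control 2 and control 5 were its lowest pigs. Without both, the log2 fold change was -0.98, past an unadjusted P of 0.05 in edgeR (adjusted p = 0.695). Leaving out the lowest controls raises the control mean by itself, so this P is descriptive only. The 3 pigs with the highest COL4A4 were the 3 with the most INSL3, a theca marker, and also the 3 highest for COL2A1. FSHR, a granulosa marker, was highest in control 1 and lowest in control 2, as COL4A4 was. The sum of granulosa markers was highest in rpFSH 2. CYP17A1, the other theca marker listed, was highest in control 3 but only 8.28 and 8.17 FPKM in control 1 and control 4, below 3 of the rpFSH pigs. The part of theca or granulosa cells in the levels of COL4A4 was not tested.

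Type VI collagen forms beaded filaments around cells. COL6A3 was at 19.3, 10.7, 15.8, 31.1 and 69.8 FPKM in control 1 to 5 and at 29.2, 39.8, 28.2, 36.1 and 56.6 FPKM in rpFSH 1 to 5. Control 5 was the highest pig, and of the other controls only control 4 was within the range of the rpFSH pigs. Its log2 fold change was 0.45 with all pigs (interval -0.58 to 1.48, exact permutation p = 0.246). Without control 5 it was 1.05 and passed an unadjusted P of 0.05 in edgeR. Control 5 also had the highest sum of smooth muscle and pericyte markers, though not of RGS5. The 3 highest pigs for COL6A3 and COL5A1 were those with the highest sum of these markers, whose part in the levels was not tested. COL6A6, a further chain of the type, was at 0.0782, 0.149, 0.0859, 0.222 and 4.39 FPKM in the control pigs, with 51, 108, 56, 162 and 3224 counts. In the rpFSH pigs it was at 0.0105, 0.732, 0.0598, 0.121 and 0.0526 FPKM. COL6A6 had a log2 fold change of -2.22 with all pigs (interval -5.31 to 0.87, exact permutation p = 0.484) and of 0.64 without control 5, so its direction turned with 1 pig. Without rpFSH 2 it was -3.91 and passed an unadjusted P of 0.05 in edgeR. COL6A5 had a mean of 3.35 FPKM and a log2 fold change of -0.58, with its highest value, 9.91 FPKM, in control 4, and without control 4 it was 0.05.

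COL28A1, the chain of type XXVIII collagen, had the lowest log2 fold change of the family. It was at 0.0186, 1.80, 0.0399, 0.0441 and 1.58 FPKM in control 1 to 5, with 6, 635, 14, 16 and 574 counts. In rpFSH 1 to 5 it was at 0.0800, 0.157, 0.130, 0.0739 and 0.149 FPKM, with 30, 58, 42, 25 and 51 counts. Control 2 and control 5 were above every rpFSH pig, and the other 3 controls were below every rpFSH pig. The log2 fold change was -2.44 with a standard error of 1.16 (interval -5.01 to 0.13), and the unadjusted P was 0.0606 with edgeR, 0.0182 with DESeq2 and 0.444 by the exact permutation test. With 1 pig left out it stayed between -2.77 and -1.72, and it passed an unadjusted P of 0.05 in edgeR without control 1, without control 3 or without control 4. Without control 2 and control 5 it was 1.81, in the opposite direction, and passed an unadjusted P of 0.05 in edgeR (adjusted p = 0.685). Leaving out the 2 highest controls lowers the control mean by itself, so this P is descriptive only. These 2 pigs were also the only ones with over 10 FPKM of summed epithelial markers, whose part in this gene's levels was not tested.

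**Figure D4:**
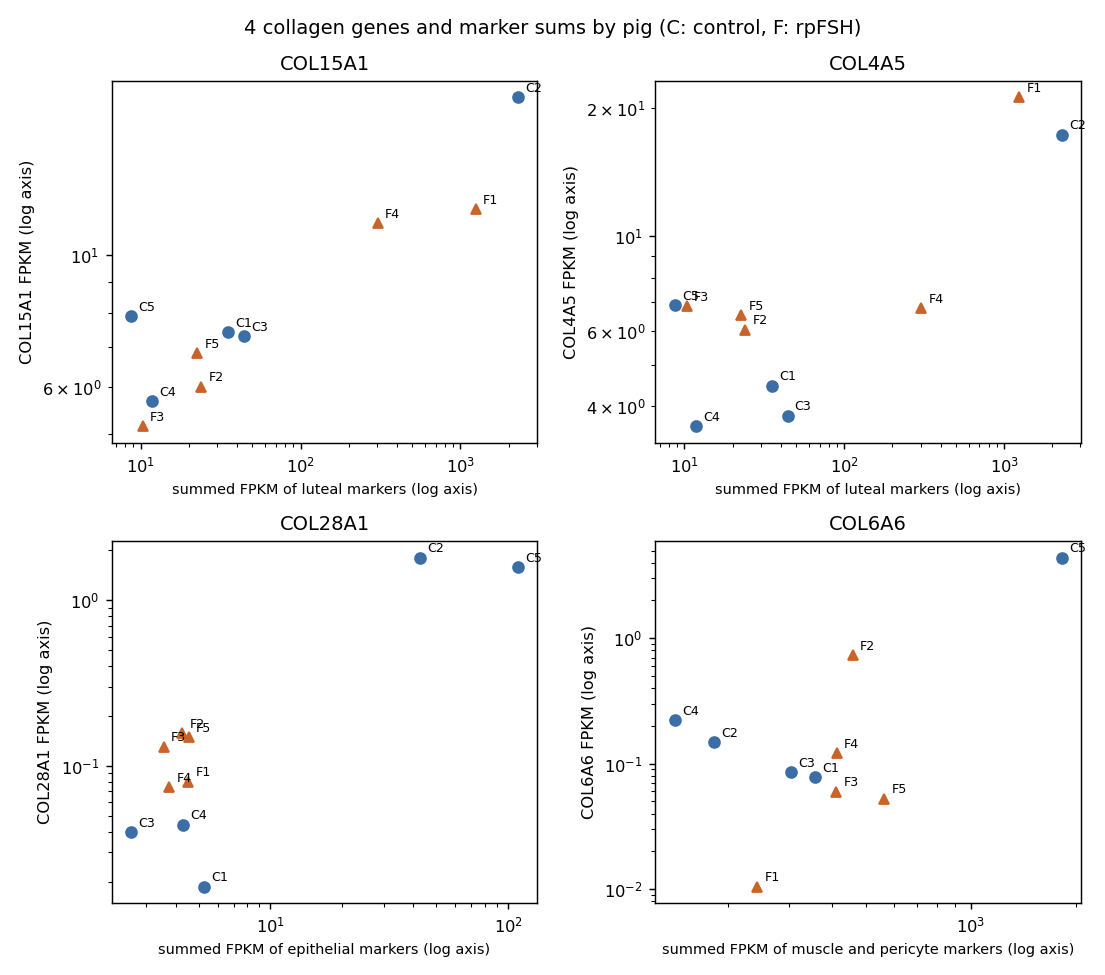
FPKM of COL15A1 and COL4A5 against summed luteal markers, of COL28A1 against summed epithelial markers and of COL6A6 against summed smooth muscle and pericyte markers, with 1 point per pig (C, control; F, rpFSH; log axes). C2 and C5 lie apart from the others for COL28A1, as C5 does for COL6A6, C2 and F1 do for COL4A5, and C2, F1 and F4 do for COL15A1.

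The network-forming collagens of types VIII and X, the multiplexins and the transmembrane collagens had 8 tested members in all, and 0 passed the test. COL8A1, a chain of the type VIII collagen found in vessel walls, was at 1.82, 1.56, 1.03, 2.09 and 6.52 FPKM in the control pigs and at 3.12, 2.68, 3.92, 3.23 and 7.57 FPKM in the rpFSH pigs. Every rpFSH pig was above 4 of the 5 controls, and control 5 was above 4 of the 5 rpFSH pigs. Its log2 fold change of 0.74 (interval -0.35 to 1.83, exact permutation p = 0.183) was the second highest of the family. Without control 5 it was 1.41 and passed an unadjusted P of 0.05 in edgeR. COL8A2, the partner chain, had a mean of 0.609 FPKM and a log2 fold change of 0.49 (interval -0.67 to 1.65), and COL10A1, a collagen of growing cartilage, had 0.464 FPKM and -0.03 (interval -0.69 to 0.62).

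COL18A1, whose tail is cleaved to release endostatin, varied least of all members. It was at 8.77, 6.36, 8.22, 8.67 and 8.13 FPKM in the control pigs and at 8.98, 8.75, 7.48, 11.8 and 9.88 FPKM in the rpFSH pigs, a ratio of 1.85 between the highest and the lowest pig. Its log2 fold change was 0.29 with a standard error of 0.14 (interval -0.03 to 0.61, exact permutation p = 0.159), and without rpFSH 3 alone it was 0.36 and passed an unadjusted P of 0.05 in edgeR. COL15A1 was at 7.41, 18.4, 7.31, 5.68 and 7.90 FPKM in the control pigs and at 11.9, 6.01, 5.15, 11.3 and 6.84 FPKM in the rpFSH pigs. Its 3 highest pigs, control 2, rpFSH 1 and rpFSH 4, were the 3 with the highest sum of luteal markers, though not of LHCGR, and the part of luteal cells in the levels was not tested. COL15A1 had a log2 fold change of -0.11 (interval -0.88 to 0.65) with all pigs and of 0.29 without control 2.

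The 3 transmembrane members had negative log2 fold changes with all pigs, none past the test, and their size or direction turned with control 2 or control 5. COL23A1 was at 0.463, 1.42, 0.521, 0.290 and 0.807 FPKM in the control pigs and at 0.242, 0.587, 0.239, 0.276 and 0.608 FPKM in the rpFSH pigs, with a log2 fold change of -0.76 (interval -1.79 to 0.28, exact permutation p = 0.206) with all pigs, -0.33 without control 2 and -0.05 without control 2 and control 5. COL13A1 had a log2 fold change of -0.57 (interval -1.67 to 0.52) with 4.35 FPKM in control 2 against 0.725 to 2.18 FPKM elsewhere, and without control 2 it was 0.07. COL17A1, a collagen of the epithelial anchoring complex, had a mean of 0.470 FPKM and a log2 fold change of -0.26 (interval -1.57 to 1.05), which was 0.16 without control 5. COL26A1 had a mean of 1.13 FPKM and a log2 fold change of -0.21 (interval -1.22 to 0.80), which was 0.01 without rpFSH 3.

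Chains that join in 1 trimer or 1 fibril were compared across the 10 pigs. Some partners did not meet the naming rule and were found by gene identifier or, for COL4A1, by position. The locus at chr11:76858237-76997355 (minus strand) bears the name COL4A2 in the table and lies where RefSeq places COL4A1 on Sscrofa11.1, and it had a mean of 107 FPKM. COL6A2 was not matched, so 10 of the 11 listed pairs were run, on log2(FPKM + 1). COL1A1 and COL1A2 had the highest Pearson r over the 10 pigs, r = 0.989 (permutation adjusted p = 0.0001) and Spearman rho = 0.952 (permutation adjusted p = 0.000433). Without the 2 pigs farthest from the median, r was 0.945. COL4A1 with COL4A2 had r = 0.971 and rho = 0.952 (permutation adjusted p = 0.000575 and 0.000433), COL4A3 with COL4A4 had r = 0.951 and rho = 0.976 (0.0001 and 0.000433), and COL4A5 with COL4A6 had r = 0.897 and rho = 0.903 (0.0001 and 0.00205). Without the 2 farthest pigs, r was 0.885, 0.964 and 0.860, respectively. Within each group, r of these pairs and of COL1A1 with COL1A2 lay between 0.814 and 0.997.

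The 3 type IV pairs lie head to head on opposite strands, as is known for these genes, and their loci overlap by 230, 174 and 4533 bases in the table. Whether the counting used the strand is not given in the sources used here, so reads in these overlaps cannot be told apart. COL1A1 with COL3A1 had r = 0.773 and rho = 0.758 (permutation adjusted p = 0.015 and 0.0255), and r = 0.802 without control 2 and rpFSH 3. COL6A1 with COL6A3 had r = 0.831 and rho = 0.758 (0.00694 and 0.0255). Within control and rpFSH pigs, r was 0.791 and 0.928 for COL1A1 with COL3A1, and 0.962 and 0.190 for COL6A1 with COL6A3. Without control 2 and control 5, r of COL6A1 with COL6A3 was 0.605 over 8 pigs and did not pass the test (permutation p = 0.114).

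The other 4 pairs did not pass the test after adjustment. Within control and rpFSH pigs, r was -0.03 and 0.94 for COL3A1 with COL5A2, and -0.46 and 0.83 for COL5A1 with COL5A2. For COL8A1 with COL8A2 it was 0.44 and -0.73, and for COL9A2 with COL9A3 it was -0.43 and 0.61. COL3A1 and COL5A2 are neighbours on chromosome 15, 14871 bases apart, and had r = 0.560 and rho = 0.661 (permutation adjusted p = 0.13 and 0.0626). COL5A1 with COL5A2 had r = 0.115 and rho = 0.273 (permutation adjusted p = 0.866 and 0.557), and r = 0.755 without control 2 and rpFSH 3 (permutation p = 0.0312, adjusted p = 0.052). COL8A1 with COL8A2 and COL9A2 with COL9A3 had r of 0.102 and 0.00643, rho of 0.236 and 0.0788 and permutation adjusted p of r of 0.866 and 0.986. Without the 2 farthest pigs of each pair, r was 0.212 for COL3A1 with COL5A2, 0.639 for COL8A1 with COL8A2 and 0.416 for COL9A2 with COL9A3.

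The ratio of 2 chains within a pig does not depend on the scaling of the library. For COL1A1 to COL1A2 it lay between 1.02 and 1.53 in all 10 pigs, and the mean log2 ratio was 0.34 ± 0.25 for control and 0.31 ± 0.19 for rpFSH (SD, n = 5 each, exact permutation p = 0.825). For COL4A1 to COL4A2 it lay between 1.80 and 2.47 (exact permutation p = 0.444). COL1A1 to COL3A1 ran from 0.171 in control 2 to 0.957 in rpFSH 5, and COL5A1 to COL5A2 from 0.198 in control 2 to 2.09 in rpFSH 5 (exact permutation p = 0.452 and 0.937). COL6A1 to COL6A3 lay between 1.56 and 3.77 (exact permutation p = 0.516). The smallest p that 5 against 5 pigs allow is 0.00794, and all 5 ratios had Benjamini-Hochberg adjusted p of 0.86 or more.

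**Figure D5:**
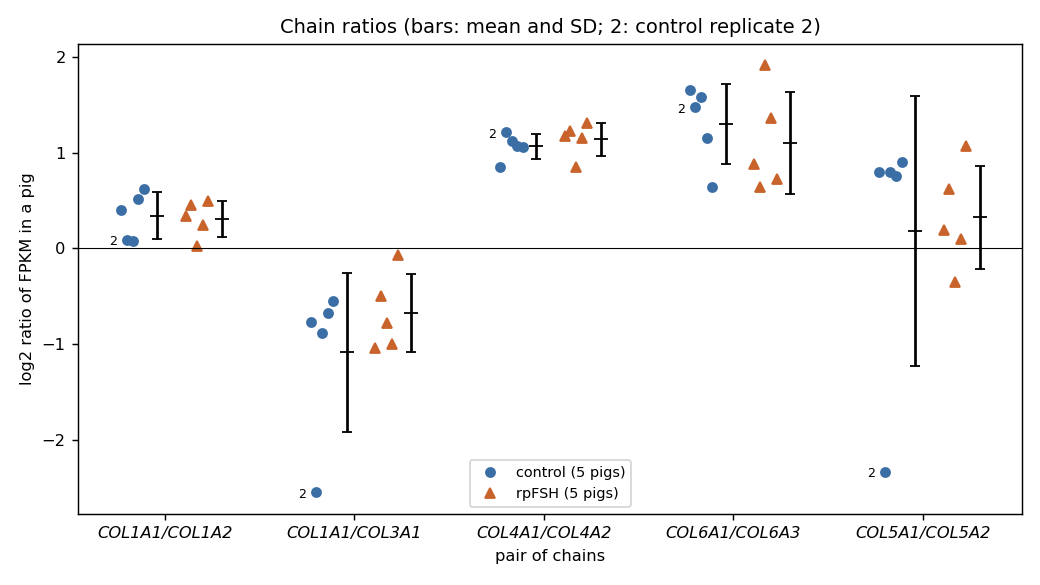
Log2 ratio of the FPKM of 2 chains in each pig, with circles for control, triangles for rpFSH and bars for the mean and SD of 5 pigs. COL1A1/COL1A2 and COL4A1/COL4A2 are tight in both groups, and control 2 (marked 2) lies far below the other pigs for COL1A1/COL3A1 and COL5A1/COL5A2.

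Genes that act on collagen were read from lists of 78 genes, of which 74 were tested. At an unadjusted P under 0.05, 3 were higher and 1 was lower in the rpFSH treatment group, against 1.54 and 3.22% of all loci tested, and 0 had an adjusted p under 0.05 in edgeR. TGM2, a transglutaminase that cross-links matrix proteins, was at 27.1, 25.6, 26.1, 21.2 and 21.6 FPKM in the control pigs and at 30.8, 25.3, 38.5, 38.9 and 68.3 FPKM in the rpFSH pigs. Of the rpFSH pigs, all except rpFSH 2 were above every control pig, and the log2 fold change was 0.80 with a standard error of 0.25 (edgeR's unadjusted P 0.00796, exact permutation p = 0.0317). LOX, the lysyl oxidase that starts the cross-linking of collagen, was at 15.7, 21.0, 11.7, 10.8 and 15.1 FPKM in the control pigs and at 15.3, 28.1, 14.3, 29.1 and 24.8 FPKM in the rpFSH pigs. The 3 highest pigs were rpFSH pigs, and the log2 fold change of LOX was 0.66 with a standard error of 0.25 (edgeR's unadjusted P 0.0245, exact permutation p = 0.0873). With each pig left out in turn, LOX was called 5 times in 10.

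BGN, the small proteoglycan biglycan, which binds collagen fibrils, was at 10.7, 4.39, 7.20, 9.38 and 13.8 FPKM in the control pigs and at 10.8, 15.9, 11.6, 14.5 and 19.6 FPKM in the rpFSH pigs. Its log2 fold change was 0.75 with a standard error of 0.29 (edgeR's unadjusted P 0.0251, exact permutation p = 0.0397), and BGN was called 7 times in 10. LUM, the proteoglycan lumican, which regulates the spacing of fibrils, was at 6.38, 7.68, 3.56, 8.09 and 29.0 FPKM in the control pigs and at 3.36, 6.19, 2.94, 3.14 and 2.07 FPKM in the rpFSH pigs. Control 5 was the highest pig, 4 of the 5 rpFSH pigs were below every control, and the log2 fold change was -1.54 with a standard error of 0.53 (edgeR's unadjusted P 0.0153, exact permutation p = 0.0159). TGM2 and LUM were called 10 times in 10. All 4 had an adjusted p of 0.992 in edgeR.

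Among 18 genes of chain modification and folding, 0 passed the test, and the most abundant, SERPINH1, the collagen chaperone, had 117 FPKM and a log2 fold change of 0.16. In the lists of basement membrane partners, collagen receptors and collagen-cleaving enzymes, 0 of 14, 0 of 10 and 0 of 5 tested genes passed. Their most abundant genes were HSPG2 (perlecan) at 79.4 FPKM, ITGB1 (integrin beta 1) at 59.4 FPKM and MMP2 (a gelatinase) at 90.7 FPKM. THBS1, an adhesive glycoprotein at 168 FPKM, had a log2 fold change of 0.84 (interval -0.10 to 1.79, exact permutation p = 0.119). The median log2 fold change of the 74 genes was 0.11, against -0.01 for all loci tested.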

How the data were processed

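Ovary RNA of 10 pigs was sequenced, 1 library per pig. Per the methods, the authors used Cutadapt for trimming, Hisat2 and Bowtie2 for mapping to Sscrofa11.1, StringTie for assembly, and StringTie with Ballgown for FPKM. The submitters' processing notes name HISAT2 2.0, StringTie 1.3.0 and Bowtie 0.12.2. Poly(A) selection and a NovaSeq stand in the labels, rRNA removal and a HiSeq in the methods. The labels give ovary as the tissue, but their RNA protocol speaks of adipose, and markers of ovarian cells were found in the libraries. The deposited table also holds whole-number counts, and how these were derived from the mapped reads is not given in the sources used here. Members came from the name and type columns. RefSeq on the same build was used only to place COL4A1 and to compare the lengths of the members' loci.

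Counts were tested with edgeR 4.0.16 (TMM, quasi-likelihood, two-sided) in R 4.3.3 on protein-coding loci averaging at least 0.1 FPKM, with library sizes over all loci and Benjamini-Hochberg adjustment over all loci tested. Standard errors were taken as the log2 fold change over the root of F. The study compared FPKM with Ballgown, and limma 3.58.1 on log2(FPKM + 1) was kept as an alternative, as was DESeq2 1.42.0. The other alternatives were a pseudocount of 0.1, other size factors, a mean FPKM of at least 1, no filter, 1 fit over all loci, a block for the replicate number, and each pig left out in turn. The fits without control 2 and control 5, and without control 2 and rpFSH 3, were chosen after seeing the data. Correlations used 100000 permutations, and the exact tests all assignments of the pigs (Python 3.11.15, scipy 1.17.1). The code was tested on simulated data.

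Pigs are separate animals per the labels, and their counts differed by more than sampling noise in every pair within a group. Same-numbered pigs had correlated deviations of r between -0.40 and 0.07 across loci, so the numbers were not taken as pairs. The genes named are the 12 most abundant members, those with an unadjusted P under 0.05, the 3 highest and 3 lowest log2 fold changes, COL6A6, COL12A1 and COL28A1, which the study lists, and the chain pairs, and of the gene lists those called and the most abundant. Values of other members were chosen after they were seen. The members and lists were chosen with earlier results of these data known. COL1A1, COL14A1 and COL17A1 have loci 4.42, 2.09 and 1.57 times as long as in RefSeq. COL5A2, COL8A2, COL6A6 and COL23A1 have 0.629, 0.723, 0.775 and 0.209 times. Whether this moved their FPKM or the chain ratios was not tested.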

Additional observations from a re-analysis of the deposited data

Results flagged for a closer look

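A pig far from the other 4 of its group was sought in 28 genes and 2 groups, that is in 56 groups of 5. Dixon's criterion was used, which about 1 in 20 independent groups of normal values meet by chance. The FPKM were not log-transformed and the genes share the same 10 pigs, so the count cannot be set against that rate. It was met 10 times, 7 times in the control group and 3 times in the rpFSH treatment group.

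Control 2 was far above the other controls for COL15A1 (18.4 FPKM, the others 5.68 to 7.90), COL4A5 (17.3 FPKM, the others 3.59 to 6.90) and COL13A1 (4.35 FPKM, the others 0.725 to 1.5), and below them for COL18A1 (6.36 FPKM, the others 8.13 to 8.77). Control 5 was far above the other controls for COL8A1 (6.52 FPKM, the others 1.03 to 2.09) and COL6A6 (4.39 FPKM, the others 0.0782 to 0.222), and control 4 for COL6A5 (9.91 FPKM, the others 1.77 to 3.79). In the rpFSH treatment group, COL4A5 was at 21.1 FPKM in rpFSH 1 (the others 6.04 to 6.86), COL8A1 at 7.57 FPKM in rpFSH 5 (the others 2.68 to 3.92) and COL6A6 at 0.732 FPKM in rpFSH 2 (the others 0.0105 to 0.121). COL28A1 did not meet the criterion in either group.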

How the results depend on the processing

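Calls in the family were few, so counts moved by single genes. At an unadjusted P under 0.05, 6 members were higher without control 2 and control 5 (COL12A1, COL6A3, COL5A3, COL28A1, COL4A5 and COL8A1, against 4.54% of all loci), and 2 without control 2 and rpFSH 3 (2.98%), both chosen after seeing the data. Lower were 1 with DESeq2 (COL28A1, against 599 of 15170 loci) and 1 with the replicate block (COL23A1, against 208 of 15170). Without control 2 and control 5, 1 was lower (COL4A4, against 2.29% of all loci). With the study's limits, 3 were higher without control 2 and control 5 and 1 without control 2 and rpFSH 3. The share of all loci at these limits is not given for those fits. With DESeq2, 1 was lower at these limits, against 446 of 15170 loci. COL28A1 reversed to 1.81 without control 2 and control 5 (-2.77 to -1.72 with 1 pig left out). With 1 pig left out, 1 to 3 members were higher and 0 to 1 lower, 0 to 2 and 0 to 1 with the study's limits, and 0 after adjustment. The sign differed from the reported one in 44 of 552 planned values, in 17 members at least once. The block, although the numbers did not pair the pigs (0 of 5 correlations over 0.1, and 0 pigs closest to their own number), lost COL12A1 (unadjusted P 0.0502) and, among the listed genes, LUM (0.0686), called COL8A1 (0.93) and COL23A1, and called 5 listed genes higher.

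Of all loci, 234 were higher and 488 lower at an unadjusted P. Higher were 153 with library totals, 137 and 124 with limma (pseudocounts 0.1 and 1) and 165 to 381 with 1 pig left out. Lower were 207 at a mean FPKM of at least 1, 208 with the block and 350 to 595 with 1 pig left out. With the study's limits, 77 were higher and 391 lower. Higher were 41 and 5 with limma, 40 at the stricter filter, 135 with no filter, 50 with the block and 59 to 151 with 1 pig left out. Lower were 147 and 12 with limma, 105 at the stricter filter, 140 with the block and 227 to 496 with 1 pig left out. Adjusted p under 0.05 held for 86 with DESeq2 and 0 to 1 with 1 pig left out. Listed genes with 1 pig left out were 2 to 10 higher, 1 to 2 lower and 0 after adjustment. Differences of the log2 ratios ranged from -0.10 to 0.04 (COL1A1/COL1A2), 0.04 to 0.54 (COL1A1/COL3A1), 0.02 to 0.15 (COL4A1/COL4A2), -0.49 to 0.32 (COL5A1/COL5A2) and -0.40 to -0.08 (COL6A1/COL6A3). The cause was not tested.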

Other observations

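A further 13 collagen loci of the table did not meet the naming rule, and were known by identifier, description or position. For 12 of them the name column holds a gene identifier, with or without another gene's name, and the COL4A1 locus is named COL4A2 and has no protein-coding type. COL6A1, a chain of the beaded filaments, was at 61.0, 29.7, 47.2, 69.1 and 109 FPKM in the control pigs and at 53.6, 62.1, 106, 92.6 and 93.8 FPKM in the rpFSH pigs (log2 fold change 0.45, exact permutation p = 0.278). COL4A6 had a mean of 3.55 FPKM and was highest in rpFSH 1 and control 2, at 7.20 and 5.59 FPKM, the same 2 pigs as COL4A5. COL7A1, the anchoring fibril collagen, had 4.11 FPKM on a locus that also holds UQCRC1, so its level cannot be told from that gene's. COL9A2, a collagen that decorates cartilage fibrils, was at 6.07, 0.700, 9.03, 3.48 and 2.05 FPKM in the control pigs and at 1.39, 3.70, 0.997, 2.13 and 1.41 FPKM in the rpFSH pigs (log2 fold change -1.08, exact permutation p = 0.214). COL9A1 was listed at the table's lowest value, 0.0001 FPKM, in all 10 pigs. None of the loci that were tested passed an unadjusted P of 0.05.

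A further 14 loci bear a collagen name without a gene type, among them the COL4A1 locus above. Apart from that locus their means were 5.24 FPKM or less.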
